A study of Mus musculus with 9 samples.

Results

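The genes described here encode the enzymes that take up, split and store glucose carbon, together with genes of the cellular response to low oxygen, and they were followed through a forced change of cell state in mouse cells. The set is a list of 43 genes: 3 hexokinases, 7 genes of upper glycolysis, 7 of lower glycolysis, 5 around lactate and pyruvate, 5 of the pentose phosphate pathway, 3 bifunctional regulators, 3 of gluconeogenesis, 4 of glycogen metabolism and 6 of the hypoxia response. Each was found by its symbol among the 37975 gene rows of the expression table, with the row of highest mean kept, and all 43 reached at least 1 FPKM (fragments scaled to transcript length and library size) in at least 1 library. A value was usable in all 9 libraries for 42 of them, and the estimate for Vegfa failed in 5 libraries.

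RNA was sequenced from 9 libraries, 1 per group, so no group has a replicate. The wild-type extraembryonic endoderm (XEN) line is a stem cell line of the yolk sac lineage, grown in serum with fibroblast-conditioned medium. The Sox17-overexpressing line of embryonic stem cells (ESC), in which doxycycline at 100 ng/ml turns on the endoderm transcription factor Sox17, was collected without doxycycline, after 7, 21, 35 and 49 h with it, and after 6 days with it. Its day 6 library carries the word SORT in its label, with the gate not given. Sox17-XEN is the line grown out of those cells, labelled with 30 days of doxycycline and 30 days without it; it is read here as cells that no longer needed doxycycline, although the order of the 30-day periods is not plain in the label. R1 ESC are wild-type, and the ESC were grown over a feeder layer of mouse fibroblasts with serum and LIF. The labels do not say whether the Sox17 line is a single clone, and both the day 6 and the Sox17-XEN cells derive from it, so they share its genotype and are not independent of the library without doxycycline.

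Glycolysis splits glucose to pyruvate, and most of its steps can be run by several isoenzymes encoded by separate genes that differ in tissue, affinity and regulation. Pyruvate is either reduced to lactate or passed to mitochondria through pyruvate dehydrogenase, which PDH kinases inhibit, while the pentose phosphate pathway draws off glucose 6-phosphate to make NADPH and ribose. Many of these genes are known targets of the hypoxia-inducible factors, which prolyl hydroxylases of the Egln family mark for degradation when oxygen is present. Mouse ESC are known for high glycolytic flux, and primitive endoderm derivatives such as XEN cells secrete large amounts of basement membrane protein.

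The promoters of the 5 genes whose changes recur below are shown from RefSeq, build GRCm38.p6, as the 300 bases around the annotated start on the gene's own strand. In the first pair, Pgam2, which was higher early in doxycycline, and Hkdc1, which was higher late in it, the capitals mark ACAAT on either strand, the core letters of SOX factor sites. In Bnip3, Egln3 and Ero1l, all higher in wild-type XEN than in R1 ESC, the capitals mark ACGTG or GCGTG on either strand, the core letters of hypoxia response elements, which can overlap each other.
Pgam2, chr11:5803747-5804046, minus strand: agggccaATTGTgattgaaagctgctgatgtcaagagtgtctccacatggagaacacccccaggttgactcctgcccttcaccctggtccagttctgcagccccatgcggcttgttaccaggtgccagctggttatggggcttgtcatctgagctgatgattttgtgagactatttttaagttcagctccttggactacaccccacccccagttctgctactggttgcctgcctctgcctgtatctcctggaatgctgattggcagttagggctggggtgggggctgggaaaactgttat
Hkdc1, chr10:62422408-62422707, minus strand: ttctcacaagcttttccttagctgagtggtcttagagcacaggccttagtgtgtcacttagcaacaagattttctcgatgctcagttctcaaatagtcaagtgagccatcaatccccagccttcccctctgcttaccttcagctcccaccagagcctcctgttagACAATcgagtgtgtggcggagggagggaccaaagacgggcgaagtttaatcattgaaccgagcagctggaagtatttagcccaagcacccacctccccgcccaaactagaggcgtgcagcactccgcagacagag
Bnip3, chr7:138909457-138909756, minus strand: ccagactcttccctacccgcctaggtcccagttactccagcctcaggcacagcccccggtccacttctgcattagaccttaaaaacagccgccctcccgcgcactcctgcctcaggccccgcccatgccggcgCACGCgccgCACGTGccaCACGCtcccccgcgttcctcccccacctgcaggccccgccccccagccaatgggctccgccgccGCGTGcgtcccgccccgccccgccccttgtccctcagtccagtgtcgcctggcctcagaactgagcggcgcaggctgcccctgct
Egln3, chr12:54203825-54204124, minus strand: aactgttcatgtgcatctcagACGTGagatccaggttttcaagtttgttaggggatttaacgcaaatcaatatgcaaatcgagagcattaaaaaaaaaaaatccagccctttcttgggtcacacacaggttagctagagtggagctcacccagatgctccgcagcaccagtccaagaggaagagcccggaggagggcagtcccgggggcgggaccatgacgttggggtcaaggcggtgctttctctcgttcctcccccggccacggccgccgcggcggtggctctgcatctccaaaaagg
Ero1l, chr14:45318523-45318822, minus strand: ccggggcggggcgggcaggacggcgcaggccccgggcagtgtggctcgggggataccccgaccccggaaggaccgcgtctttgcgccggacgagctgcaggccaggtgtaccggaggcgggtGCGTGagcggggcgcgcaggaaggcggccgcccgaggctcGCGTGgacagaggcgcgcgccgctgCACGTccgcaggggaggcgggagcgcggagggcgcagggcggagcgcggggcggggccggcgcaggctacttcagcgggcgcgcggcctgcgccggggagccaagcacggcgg
All 43 genes had a listed promoter, Ero1l under its current symbol Ero1a. ACGTG or GCGTG occurred in the first listed promoter of 33 of 43 genes (76.7%), against 43.8% of 32851 mouse promoters of the same length, and ACAAT occurred in that of 13 of 43, against 31.0%. The background counts promoters rather than genes, whereas a member with several listed promoters entered by the first only. The background was not matched to the members in expression or base content. Whether the members differ from promoters matched in these respects was not tested. A match is a run of letters and says nothing about binding in these cells.

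Levels are printed as deposited FPKM, and differences are of log2(FPKM + 1) after each library was rescaled by the median ratio of 6670 well-expressed rows. "Higher" and "lower" in counts mean a difference of at least 1 log2 unit between 2 single libraries, with no test. Between the uninduced Sox17 line and R1 ESC 95% of the 8031 genes with 5 FPKM or more in both differed by -0.94 to 0.98, which is a spread over genes and not the error of any 1 gene. In that comparison none of 43 members was higher and none was lower, against 3.28% and 2.07% of all genes. No read counts are given, so depth is unknown, and relative to R1 ESC it was estimated at 62.0% for day 6 to 127% at 7 h. The authors' lower confidence bound was 0 for 369 of 382 usable member values. Sox17 had 0.909 FPKM without doxycycline, 283 FPKM at 7 h and 71.1 FPKM at day 6, then 101 FPKM in Sox17-XEN, and it had 239 FPKM in wild-type XEN against 0.163 FPKM in R1 ESC. The 10 XEN markers summed to 2087 FPKM at day 6 and 1916 FPKM in Sox17-XEN, against 18.0 FPKM without doxycycline, and to 1991 FPKM in wild-type XEN, against 8.65 FPKM in R1 ESC. The 10 pluripotency markers summed to 2182 FPKM at day 6 and 15.8 FPKM in Sox17-XEN, against 3268 FPKM without doxycycline, and to 16.1 FPKM in wild-type XEN, against 5002 FPKM in R1 ESC. Esrrb had no usable value without doxycycline, at day 6 or in R1 ESC and is not in those sums. Dppa5a gave 1733 FPKM of the day 6 sum, against 1375 FPKM without doxycycline. Every other pluripotency marker measured in both was lower at day 6. Nanog, Sox2 and Tdgf1 had 1.89, 1.84 and 1.04 FPKM at day 6, against 169, 131 and 200 FPKM without doxycycline. The 14 fibroblast markers were listed as a sign of feeder cells. They summed to 441 FPKM at day 6 and 1104 FPKM in Sox17-XEN, against 2963 FPKM without doxycycline and 3504 FPKM at 49 h. The sum was 47.2 FPKM in wild-type XEN, against 1336 FPKM in R1 ESC. Fbln1 went the other way, with 73.7 FPKM at day 6 and 103 FPKM in Sox17-XEN, against 22.5 FPKM without doxycycline. Dcn, Lum and Aspn were also higher in Sox17-XEN than without doxycycline, and Fbn1 was higher in wild-type XEN than in R1 ESC. All other markers were lower in each of these comparisons. The part of feeder RNA in the differences between states was not tested. In bulk RNA, fewer cells of a type and less RNA per cell cannot be told apart.

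**Figure D1:**
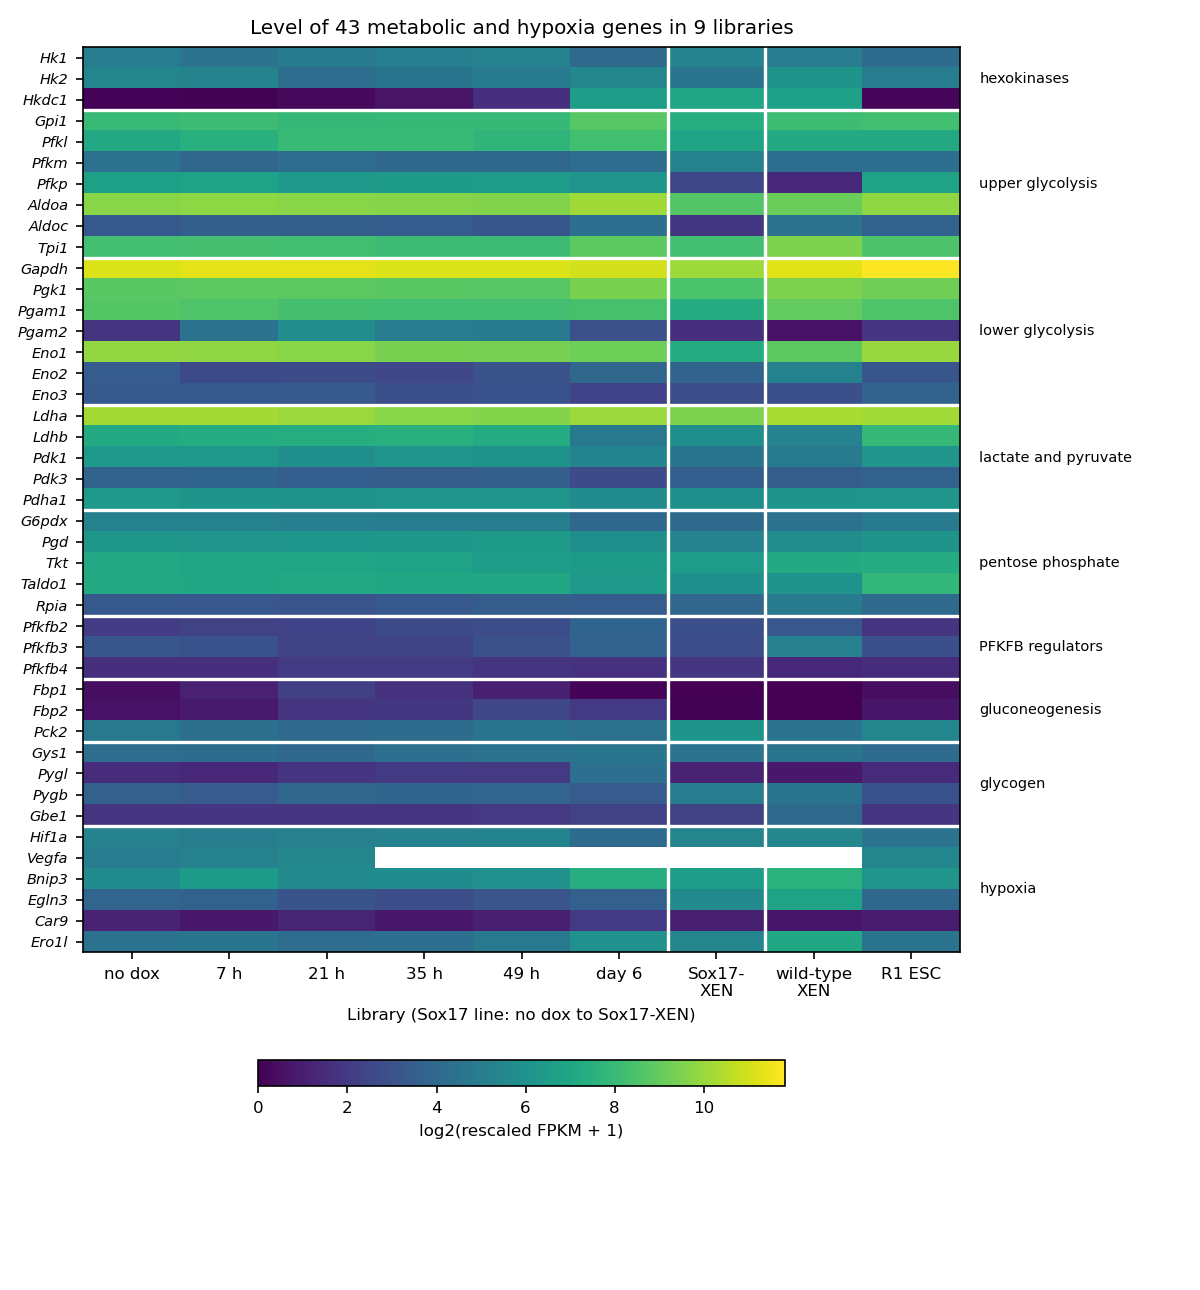
Level of each gene, as log2 of rescaled FPKM + 1 (colour), in the 9 libraries (columns), grouped by role (rows); white cells are failed estimates. The rows of Hkdc1 and Pfkp change most between the ESC-type and the XEN-type libraries, while Gapdh, Ldha and Aldoa stay among the brightest rows.

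Members moved in both directions in each of 3 comparisons of state. In wild-type XEN relative to R1 ESC, 11 of 42 members were higher and 6 were lower, against 16.6% higher and 21.5% lower of all genes, and the members' median difference was -0.06, against -0.11 over all genes. At day 6 relative to no doxycycline, 9 of 42 were higher and 4 lower, against 13.7% and 16.0% of all genes, with a median of -0.04, against -0.06. In Sox17-XEN relative to no doxycycline, 4 of 42 were higher and 11 lower, against 14.0% and 18.5% of all genes, with a median of -0.33, against -0.07. On the FPKM as deposited, the splits were 15 higher and 4 lower in wild-type XEN, and 10 and 1 at day 6. In Sox17-XEN they were 8 and 5, so the balance turned round there. Of all genes as deposited, 3848 of 14974 were higher and 2390 lower in wild-type XEN. The counts were 2639 and 1910 of 14992 at day 6, and 3088 and 2184 of 14984 in Sox17-XEN. The rescaling put the median of all genes at -0.11, with 0.21 as deposited, in wild-type XEN, at -0.06, with 0.10 as deposited, at day 6, and at -0.07, with 0.17 as deposited, in Sox17-XEN. Among all genes it moved the higher share of calls to 43.6% from 61.7% as deposited for wild-type XEN, to 46.2% from 58.0% for day 6 and to 42.96% from 58.6% for Sox17-XEN.

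**Figure D2:**
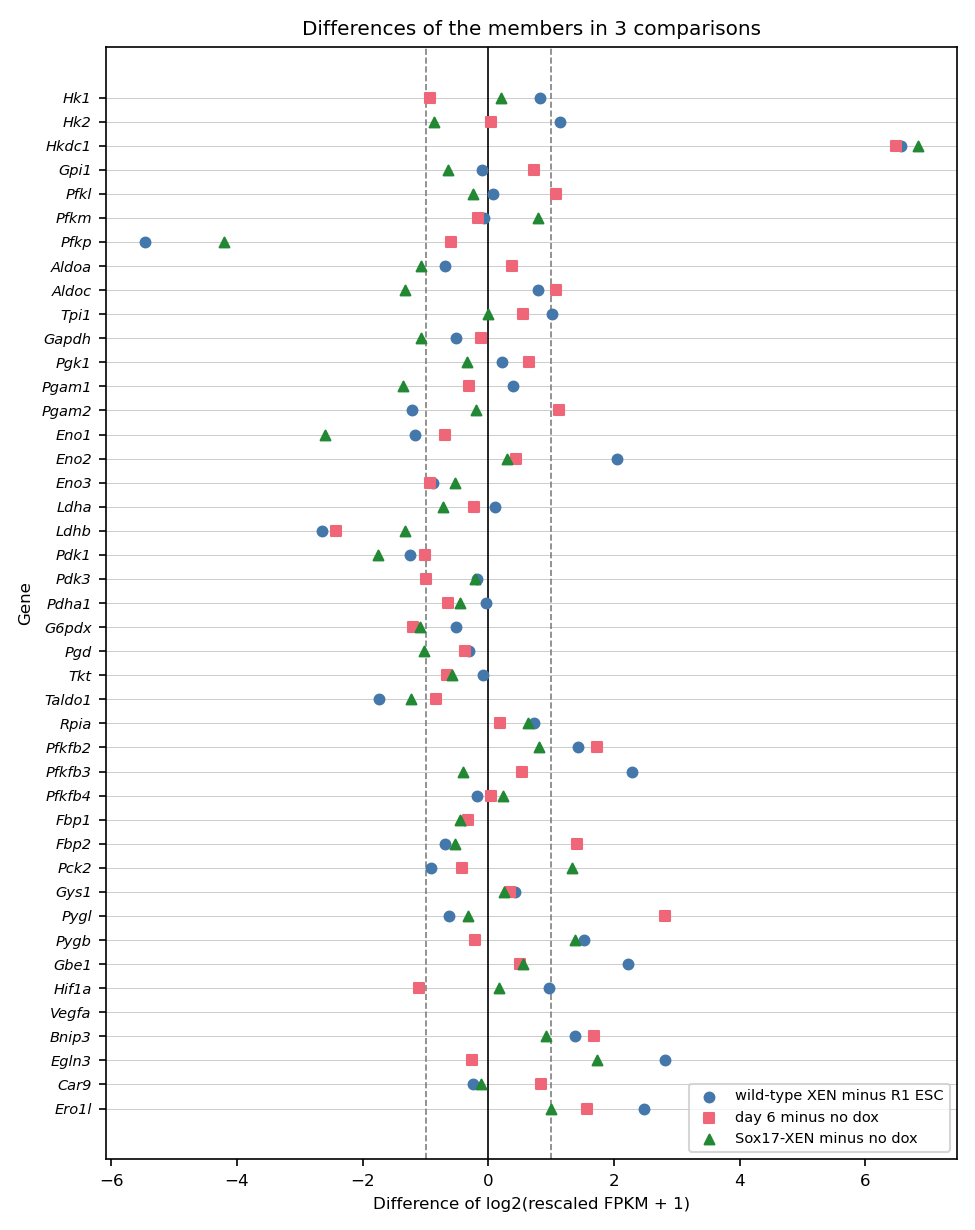
Difference of log2(rescaled FPKM + 1) for each member (rows) in wild-type XEN minus R1 ESC (circles), day 6 minus no doxycycline (squares) and Sox17-XEN minus no doxycycline (triangles), 1 library a group; dashed lines mark 1 log2 unit. Hkdc1 lies between 6.48 and 6.84 in all 3 comparisons, and Pfkp lies below -4 in both XEN-type comparisons but not at day 6.

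The comparisons of wild-type XEN with R1 ESC and of Sox17-XEN with the uninduced line share no library. Higher in both were 3 genes, Egln3, Hkdc1 and Pygb, which is 75.0% of those higher in Sox17-XEN and 27.3% of those higher in wild-type XEN. Lower in both were 5 genes, Eno1, Ldhb, Pdk1, Pfkp and Taldo1, which is 45.5% of those lower in Sox17-XEN and 83.3% of those lower in wild-type XEN. Over all genes, those higher in both were 64.5% of the genes higher in Sox17-XEN and 54.3% of those higher in wild-type XEN, and those lower in both were 71.4% and 61.5%. On the values as deposited, 6 members were higher in both, with Bnip3, Ero1l and Pfkfb2 added, and Pfkp was the 1 member lower in both. Over all genes as deposited, those higher in both were 70.5% of the genes higher in Sox17-XEN and 56.6% of those higher in wild-type XEN. Those lower in both were 70.4% and 64.1%. A test of the 2 XEN-type lines against the 2 ESC-type lines, with each line as 1 unit, asked whether such differences exceeded the spread between lines (limma, two-sided, adjusted over 14925 genes). Sox17-XEN was grown out of the uninduced line, so these 2 of the 4 are not independent, and the fit does not account for that. It called 8 of 42 members, 2 that rose and 6 that fell, against 6.51% higher and 12.5% lower of all genes. On the values as deposited it called 7 members, 3 higher and 4 lower, without Taldo1 and Fbp1 and with Pygb, and among all genes 1729 were higher and 1476 lower, against 972 higher and 1860 lower after rescaling. Hkdc1 rose by 6.71 log2 units (SE 0.25, adjusted p = 0.0156) and Egln3, a HIF prolyl hydroxylase, rose by 2.27 (SE 0.46, adjusted p = 0.0428). Pfkp fell by 4.83 (SE 0.46, adjusted p = 0.0157), Ldhb fell by 1.99 (SE 0.37, adjusted p = 0.0379), Pdk1 fell by 1.504 (SE 0.21, adjusted p = 0.0232) and Taldo1 fell by 1.48 (SE 0.29, adjusted p = 0.0415). The fructose bisphosphatases Fbp1 and Fbp2 were also called lower, at levels under 1 FPKM in all 4 lines, with adjusted p of 0.0467 and 0.0324. Each of the 8 lay on the same side in both XEN-type lines. Pygb, at a difference of 1.45 (SE 0.34), had an adjusted p of 0.0581. The calls depended on the lines entered. Whichever line was left out, limma called fewer members and fewer of all genes. Such a fit leaves a single line in 1 of the states, so its counts are not given.

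Hexokinases, which trap glucose in the cell as glucose 6-phosphate, showed the largest move of isoenzyme share among the 13 families compared, 67.3 percentage points between R1 ESC and Sox17-XEN. Hkdc1, a hexokinase-domain gene (ENSMUSG00000020080, mm9 chromosome 10 from 61845885 to 61885239), had 0.0767 FPKM without doxycycline, then 0.045, 0.199, 0.483 and 2.07 after 7, 21, 35 and 49 h, and 107 at day 6, and 146 in Sox17-XEN. It had 137 FPKM in wild-type XEN, against 0.141 FPKM in R1 ESC. The 3 converted or XEN libraries were all above 100 FPKM and the other 6 were at or below 2.07 FPKM, so the groups did not overlap. The share of all genes that separate libraries in such a way was not taken, here or for the members below. The differences were 6.48 at day 6, 6.84 in Sox17-XEN and 6.57 in wild-type XEN, and these understate the fold because the uninduced level lies under the added 1 FPKM. Hk1, the broadly expressed hexokinase, had 29.5 FPKM without doxycycline, then 18.8, 24.5, 30.8 and 35.8 after 7, 21, 35 and 49 h, and 17.8 at day 6, with 43.1 in Sox17-XEN, and it had 37.6 FPKM in wild-type XEN against 15.2 FPKM in R1 ESC. Hk2, the insulin- and hypoxia-responsive form, had 39.1 FPKM without doxycycline, then 33.5, 15.2, 21.1 and 28.2 after 7, 21, 35 and 49 h, and 47.9 at day 6, with 26.5 in Sox17-XEN, and it had 85.6 FPKM in wild-type XEN against 27.9 FPKM in R1 ESC. Wild-type XEN had the most Hk2 RNA, with a difference of 1.13. The Hk1 difference of 0.82 in wild-type XEN was 1.25 as deposited. Of the summed FPKM of 5 hexokinase genes, Hkdc1 held 61.7% at day 6 and 67.6% in Sox17-XEN, against 0.11% without doxycycline, and it held 52.6% in wild-type XEN, against 0.32% in R1 ESC. Hk2 led in R1 ESC with 63.7% of the family and in the uninduced line with 56.6%. A share within a library does not depend on the rescaling.

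**Figure D3:**
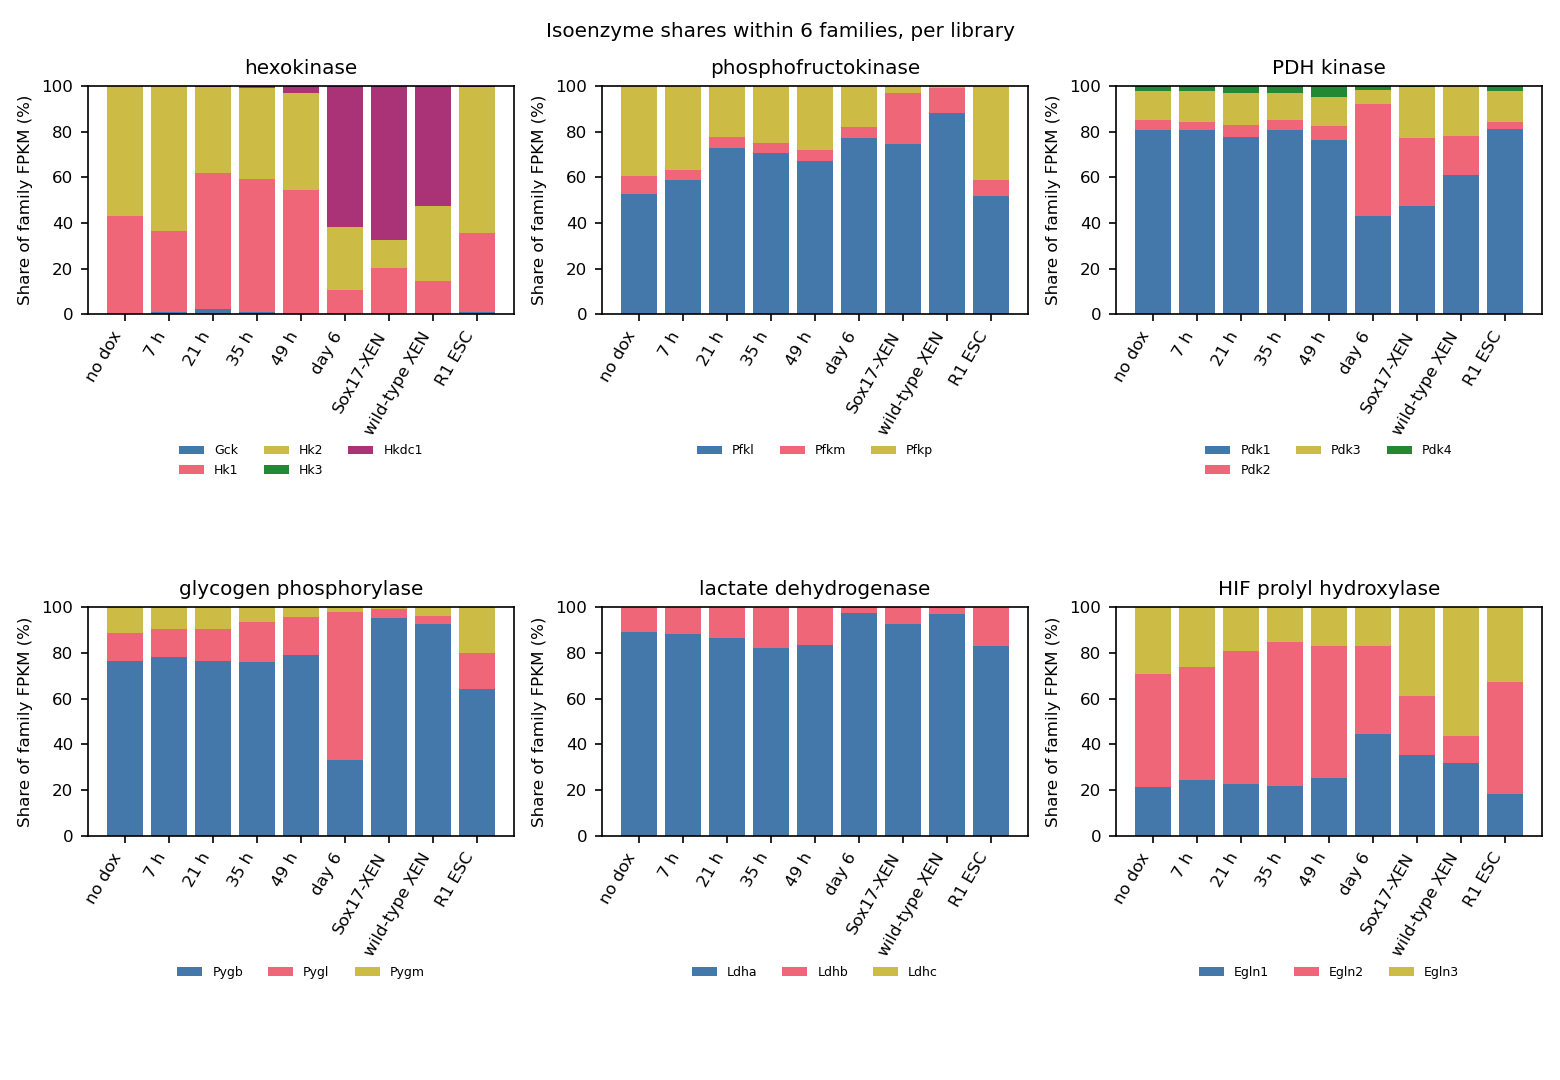
Share of the summed FPKM of each family (vertical axis, percent) held by each isoenzyme, per library (horizontal axis, Sox17 line from no doxycycline to Sox17-XEN, then wild-type XEN and R1 ESC). Hkdc1 takes over 50% of the hexokinase bar from day 6 on and in wild-type XEN, and Pygl leads the glycogen phosphorylase bar at day 6 alone, with 64.9%.

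Phosphofructokinase commits glucose carbon to glycolysis. Pfkp, its platelet form (ENSMUSG00000021196, mm9 chromosome 13 from 6547403 to 6648023, at a locus listed together with Pitrm1), had 99.8 FPKM without doxycycline, then 99.8, 69.8, 79.6 and 84.4 after 7, 21, 35 and 49 h, and 78.0 at day 6, then 5.71 in Sox17-XEN. It had 1.95 FPKM in wild-type XEN, against 102 FPKM in R1 ESC. Both XEN-type lines were below every other library, and the day 6 cells, which already carried Hkdc1, were not low in Pfkp. The difference between Sox17-XEN and day 6 was -3.61. Pfkl, the liver form, had 133 FPKM without doxycycline, then 160, 226, 227 and 203 after 7, 21, 35 and 49 h, and 333 at day 6, with 142 in Sox17-XEN, and it had 187 FPKM in wild-type XEN against 129 FPKM in R1 ESC. Its day 6 difference was 1.07. Pfkm, the muscle form, had 18.9 FPKM without doxycycline, then 12.0, 15.2, 14.0 and 14.4 after 7, 21, 35 and 49 h, and 19.9 at day 6, with 42.2 in Sox17-XEN, and it had 22.8 FPKM in wild-type XEN against 17.5 FPKM in R1 ESC. Sox17-XEN was the high library for Pfkm, with a difference of 0.80, which was 1.12 as deposited. Pfkp held 3.01% of the family in Sox17-XEN, against 39.6% without doxycycline, and 0.92% in wild-type XEN, against 41.1% in R1 ESC, while Pfkl led in every library. At day 6, Pfkl held 77.3%, against 52.9% without doxycycline, and Pfkp 18.1%.

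In the rest of upper glycolysis, the day 6 library was the high one for Gpi1, which converts glucose 6-phosphate to fructose 6-phosphate, at 476 FPKM, against 244 FPKM without doxycycline, a difference of 0.72. Aldoa, the main aldolase, had 1232 FPKM at day 6 and 478 FPKM in Sox17-XEN, against 799 FPKM without doxycycline, and 721 FPKM in wild-type XEN, against 845 FPKM in R1 ESC. Its Sox17-XEN difference of -1.07 was -0.74 as deposited. Aldoc, the brain-type aldolase, had 21.1 FPKM at day 6 and 3.28 FPKM in Sox17-XEN, against 7.92 FPKM without doxycycline, and 27.1 FPKM in wild-type XEN, against 11.1 FPKM in R1 ESC. Its wild-type XEN difference of 0.78 was 1.22 as deposited. Beside Aldoc and the neuronal enolase Eno2, the neural marker list had 4 of its 6 genes measured, summing to 5.52 FPKM at day 6 and 25.5 FPKM in Sox17-XEN, against 55.9 FPKM without doxycycline, and to 10.2 FPKM in wild-type XEN, against 52.03 FPKM in R1 ESC. Tpi1, triosephosphate isomerase, had 933 FPKM in wild-type XEN, against 337 FPKM in R1 ESC, a difference of 1.01 that stood at the threshold, and 367 FPKM in Sox17-XEN, against 293 FPKM without doxycycline, a difference of -0.01.

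Lower glycolysis turns the triose phosphates into pyruvate and yields ATP. Eno1, the ubiquitous enolase, had 909 FPKM without doxycycline, then 812, 731, 647 and 638 after 7, 21, 35 and 49 h, and 665 at day 6, then 189 in Sox17-XEN, and it had 577 FPKM in wild-type XEN against 944 FPKM in R1 ESC. Its difference was -2.59 in Sox17-XEN and -1.17 in wild-type XEN, the second of which was -0.71 on the values as deposited. Eno2 had 9.42 FPKM without doxycycline, then 4.70, 4.87, 4.39 and 6.79 after 7, 21, 35 and 49 h, and 15.5 at day 6, with 14.8 in Sox17-XEN, and it had 44.9 FPKM in wild-type XEN against 7.22 FPKM in R1 ESC. Wild-type XEN stood apart, with an Eno2 difference of 2.05, against 0.29 for Sox17-XEN, and Eno1 nevertheless held 91.6% of enolase FPKM in wild-type XEN and 89.7% in Sox17-XEN. Gapdh, the dehydrogenase that follows the triose step, had 1271 FPKM in Sox17-XEN and between 2116 and 3316 FPKM in the other 8 libraries, a Sox17-XEN difference of -1.08 that was -0.74 as deposited. Pgam1, the main phosphoglycerate mutase, had 189 FPKM in Sox17-XEN, against 388 FPKM without doxycycline, and 629 FPKM in wild-type XEN, against 351 FPKM in R1 ESC. Pgk1 had 777 FPKM at day 6 and 418 FPKM in Sox17-XEN, against 420 FPKM without doxycycline, and 889 FPKM in wild-type XEN, against 555 FPKM in R1 ESC. Eno3, the muscle enolase, stayed between 4.65 and 11.6 FPKM in all 9 libraries. The rescaled FPKM of 19 glycolytic enzymes, from hexokinase to lactate dehydrogenase, summed to 3776 in Sox17-XEN, against 7228 without doxycycline, and to 7521 in wild-type XEN, against 8973 in R1 ESC. As deposited the sums were 4486 FPKM in Sox17-XEN, against 6816 FPKM without doxycycline, and 9478 FPKM in wild-type XEN, against 8243 FPKM in R1 ESC, so the direction in wild-type XEN turned round with the scale. Abundant glycolytic genes have processed pseudogenes, and 16 members overlap another row of the table, so reads may be split between copies or neighbours.

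Pgam2, the muscle form of phosphoglycerate mutase, was the 1 member past 1 log2 unit at 7 h of doxycycline. It lies on mm9 chromosome 11 from 5701643 to 5703736 and had 2.36 FPKM without doxycycline, then 17.8, 48.1, 28.9 and 27.2 after 7, 21, 35 and 49 h, and 7.44 at day 6, then 2.46 in Sox17-XEN. It had 0.625 FPKM in wild-type XEN, against 2.28 FPKM in R1 ESC. The 4 libraries from 7 h to 49 h were above all others, with differences from no doxycycline of 2.61, 4.00, 3.20 and 3.07. The gene's share of the 2 mutases was 14.7% at 21 h, against 0.61% without doxycycline. The 12 muscle markers summed to 18.7 FPKM at 21 h, against 10.46 FPKM without doxycycline. The sum was larger at 35 h (19.1 FPKM), at 49 h (22.4 FPKM) and in Sox17-XEN (27.6 FPKM). Acta1 gave 16.0 FPKM of the 49 h sum, and Myh7 gave 15.4 FPKM of the Sox17-XEN sum. By any amount, 10 of the 12 were higher at 21 h than without doxycycline, and Myod1 and Myh3 were lower. The share of all genes higher by any amount was not taken. Ckm and Myog, which mark differentiated muscle, were highest at 21 h but near the floor, at 0.282 and 0.241 FPKM. Mb and Myh6 were also highest at 21 h, at 1.54 and 2.97 FPKM. Myh7 and Tnnt2 peaked at 21 h within the doxycycline course, but both were higher in Sox17-XEN and in wild-type XEN. Actc1, Myod1, Myh3, Myl1 and Tnnt3 peaked in other libraries. Acta1, the largest of the list at 21 h, was highest at 49 h, at 16.0 FPKM. The part of muscle-type cells was not tested.

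**Figure D4:**
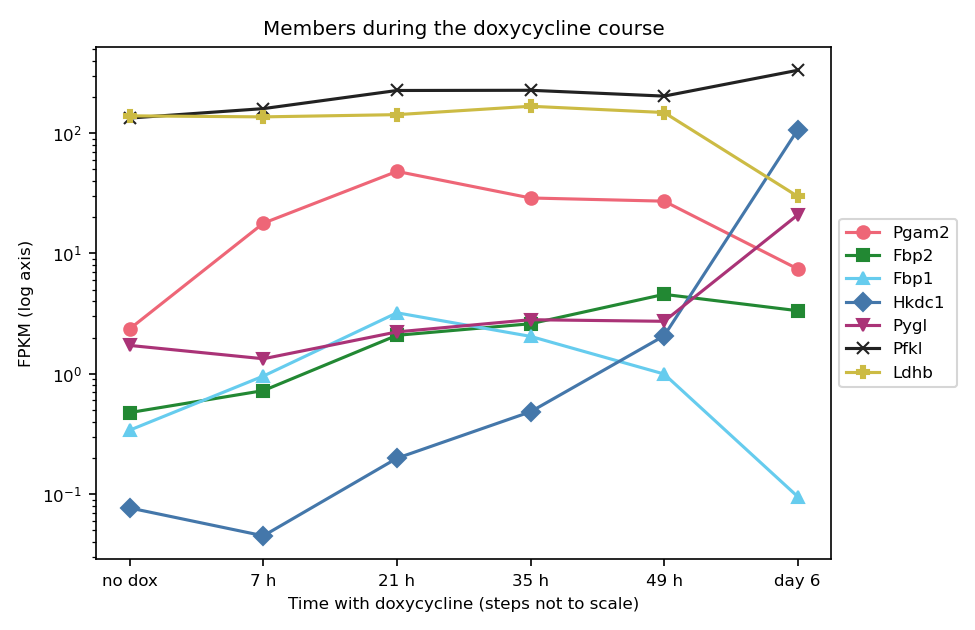
FPKM (log axis) of 7 members in the Sox17 line without doxycycline and after 7, 21, 35 and 49 h and 6 days with it (steps not to scale), 1 library a point. Pgam2 peaks at 48.1 FPKM at 21 h, whereas Hkdc1 is highest, at 107 FPKM, and Ldhb lowest, at 29.8 FPKM, at day 6.

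The doxycycline course held few other changes before day 6, and the comparisons share the uninduced library. At 7 h, 1 of 43 members was higher (Pgam2) and none was lower, against 1.39% and 1.53% of all genes. At 21 h, 3 of 43 were higher (Pgam2, Fbp1 and Fbp2) and 1 was lower (Hk2), against 3.84% and 1.63% of all genes. At 35 h, 3 of 42 were higher (Pgam2, Fbp1 and Fbp2) and 1 was lower (Egln3), against 2.76% and 2.0% of all genes. At 49 h, 3 of 42 were higher (Hkdc1, Pgam2 and Fbp2) and none was lower, against 3.2% and 2.41% of all genes. Fbp1, the liver fructose bisphosphatase of gluconeogenesis, had 0.340 FPKM without doxycycline, then 0.957, 3.21, 2.05 and 0.995 after 7, 21, 35 and 49 h, and 0.0953 at day 6, and it was listed at 0 in Sox17-XEN. It had 0.0386 FPKM in wild-type XEN, against 0.312 FPKM in R1 ESC. Fbp2, the muscle form, had 0.476 FPKM without doxycycline, then 0.725, 2.09, 2.60 and 4.57 after 7, 21, 35 and 49 h, and 3.34 at day 6, with 0.0456 in Sox17-XEN, and it had 0.0286 FPKM in wild-type XEN against 0.603 FPKM in R1 ESC. Both stayed under 5 FPKM throughout, Fbp1 highest at 21 h and Fbp2 at 49 h.

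Lactate dehydrogenase converts pyruvate and lactate into each other, and its B subunit is the form of oxidative tissues such as heart. Ldhb had 139 FPKM without doxycycline, then 136, 142, 167 and 148 after 7, 21, 35 and 49 h, and 29.8 at day 6, then 69.6 in Sox17-XEN, and it had 46.0 FPKM in wild-type XEN against 216 FPKM in R1 ESC. The day 6 library and both XEN-type lines were below the other 6, with differences of -2.42 at day 6, -1.32 in Sox17-XEN and -2.65 in wild-type XEN, and that of Sox17-XEN was -0.99 as deposited. Ldha, the A subunit, ran from 757 to 1582 FPKM over the 9 libraries and passed 1 log2 unit in none of the 3 comparisons. Ldhb held 2.51% of the family at day 6 and 7.36% in Sox17-XEN, against 10.8% without doxycycline, and 2.83% in wild-type XEN, against 16.7% in R1 ESC.

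Among the PDH kinases, Pdk1, the hypoxia-inducible member, had 75.0 FPKM without doxycycline, then 67.2, 50.4, 65.7 and 61.8 after 7, 21, 35 and 49 h, and 43.4 at day 6, with 27.2 in Sox17-XEN, and it had 36.2 FPKM in wild-type XEN against 64.0 FPKM in R1 ESC. The day 6 library and both XEN-type lines lay below the other 6, with differences of -1.01, -1.75 and -1.25, at day 6, in Sox17-XEN and in wild-type XEN, and the day 6 and wild-type XEN values were -0.78 and -0.81 as deposited. Pdk2, a PDH kinase outside the set, had 4.09 FPKM without doxycycline, then 3.08, 3.42, 3.63 and 4.86 after 7, 21, 35 and 49 h, and 49.5 at day 6, with 17.2 in Sox17-XEN, and it had 10.1 FPKM in wild-type XEN against 2.60 FPKM in R1 ESC. It led the family at day 6 with 49.0%, against 43.01% for Pdk1, while Pdk1 led with 47.4% in Sox17-XEN, 61.2% in wild-type XEN and 81.0% in R1 ESC. Pdk3, another kinase of the complex, had 11.9 FPKM without doxycycline, then 11.2, 9.19, 9.55 and 10.6 after 7, 21, 35 and 49 h, and 6.48 at day 6, with 12.7 in Sox17-XEN, and it had 12.8 FPKM in wild-type XEN against 10.7 FPKM in R1 ESC. Pdha1, the E1 alpha subunit of pyruvate dehydrogenase, ranged from 55.0 to 87.5 FPKM, and neither passed 1 log2 unit in the 3 comparisons.

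The 5 pentose phosphate genes gave no higher call on the rescaled values in the 3 comparisons, against 16.6% of all genes in wild-type XEN, 13.7% at day 6 and 14.0% in Sox17-XEN, and 1 higher call, Rpia in wild-type XEN, as deposited. Taldo1, transaldolase of the non-oxidative branch, had 89.2 FPKM at day 6 and 71.7 FPKM in Sox17-XEN, against 135 FPKM without doxycycline, and 84.1 FPKM in wild-type XEN, against 207 FPKM in R1 ESC. The differences were -0.83 at day 6, -1.23 in Sox17-XEN and -1.74 in wild-type XEN, and that of Sox17-XEN was -0.90 as deposited. G6pdx, which opens the oxidative branch, had 16.7 FPKM at day 6 and 19.2 FPKM in Sox17-XEN, against 33.6 FPKM without doxycycline, and 25.7 FPKM in wild-type XEN, against 27.2 FPKM in R1 ESC. Its differences of -1.20 at day 6 and -1.09 in Sox17-XEN were -0.97 and -0.78 as deposited. Pgd, the next oxidative enzyme, had 43.7 FPKM in Sox17-XEN, against 71.5 FPKM without doxycycline, and between 61.3 and 81.7 FPKM in the other libraries, and its Sox17-XEN difference of -1.02 was -0.70 as deposited. Tkt, transketolase, ranged from 93.7 to 186 FPKM. Rpia, ribose 5-phosphate isomerase, had 16.6 FPKM in Sox17-XEN, against 8.12 FPKM without doxycycline, and 34.5 FPKM in wild-type XEN, against 14.9 FPKM in R1 ESC, with differences of 0.64 and 0.72, which were 0.95 and 1.16 as deposited.

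The PFKFB enzymes set the level of fructose 2,6-bisphosphate, the activator of phosphofructokinase. Pfkfb3, the most kinase-active member, had 7.63 FPKM without doxycycline, then 5.91, 3.77, 4.00 and 6.26 after 7, 21, 35 and 49 h, and 13.5 at day 6, with 6.97 in Sox17-XEN, and it had 43.9 FPKM in wild-type XEN against 5.82 FPKM in R1 ESC. Wild-type XEN stood apart, with a difference of 2.29, while that of Sox17-XEN was -0.41. Pfkfb2, the heart form, had 3.003 FPKM without doxycycline, then 3.53, 3.65, 4.91 and 5.71 after 7, 21, 35 and 49 h, and 14.4 at day 6, with 7.51 in Sox17-XEN, and it had 10.3 FPKM in wild-type XEN against 2.22 FPKM in R1 ESC. Day 6 and both XEN-type lines were above the other 6, with differences of 1.74 at day 6, 0.81 in Sox17-XEN, which was 1.09 as deposited, and 1.42 in wild-type XEN. The leading member by share was Pfkfb3 in wild-type XEN with 62.1% and in R1 ESC with 39.4%. At day 6 the lead was narrow, with 34.6% for Pfkfb2 and 32.4% for Pfkfb3. In Sox17-XEN it was narrow too, with 31.8% for Pfkfb1, 29.1% for Pfkfb2 and 27.0% for Pfkfb3. Pfkfb4, the testis form, had 1.99 FPKM without doxycycline, then 1.82, 2.89, 2.96 and 2.47 after 7, 21, 35 and 49 h, and 2.44 at day 6, with 3.16 in Sox17-XEN, and it had 1.93 FPKM in wild-type XEN against 1.73 FPKM in R1 ESC. Pck2, the mitochondrial PEP carboxykinase, had 81.6 FPKM in Sox17-XEN and between 13.3 and 38.8 FPKM in the other 8 libraries.

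Glycogen phosphorylase releases glucose 1-phosphate from glycogen. Pygl, the liver form, had 1.72 FPKM without doxycycline, then 1.33, 2.23, 2.81 and 2.73 after 7, 21, 35 and 49 h, and 20.9 at day 6, then 1.48 in Sox17-XEN, and it had 0.957 FPKM in wild-type XEN against 1.56 FPKM in R1 ESC. Day 6 was the 1 high library, with a difference of 2.81, and Sox17-XEN lay 3.14 log2 units below it. The 7 visceral endoderm markers, which label the absorptive outer layer of the egg cylinder, also summed highest at day 6. The sum was 8533 FPKM, against 288 FPKM without doxycycline, and 120 FPKM in Sox17-XEN. It was 529 FPKM in wild-type XEN, against 439 FPKM in R1 ESC. Apoe gave 6772 FPKM of the day 6 sum and 282 FPKM of that without doxycycline. Each marker but Ttr was highest at day 6, and Ttr was highest in wild-type XEN. In Sox17-XEN, Apoe, at 32.1 FPKM, and Amn were lower than without doxycycline. Mttp, Cubn, Lrp2, Ttr and Afp were higher there, with Mttp at 57.7 FPKM, against 1.18 FPKM. The 5 hepatocyte markers summed to at most 0.271 FPKM in any library. The part of visceral endoderm-type cells was not tested. Pygb, the brain form, had 10.6 FPKM without doxycycline, then 8.38, 11.9, 12.2 and 13.0 after 7, 21, 35 and 49 h, and 10.7 at day 6, with 36.5 in Sox17-XEN, and it had 27.8 FPKM in wild-type XEN against 6.42 FPKM in R1 ESC. Both XEN-type lines were above all other libraries. Pygb led with 95.5% of the phosphorylases in Sox17-XEN, 92.9% in wild-type XEN and 64.2% in R1 ESC, and Pygl led at day 6 with 64.9%. Gbe1, the glycogen branching enzyme, had 2.34 FPKM without doxycycline, then 2.30, 2.25, 2.29 and 2.78 after 7, 21, 35 and 49 h, and 4.37 at day 6, with 4.86 in Sox17-XEN, and it had 20.4 FPKM in wild-type XEN against 2.48 FPKM in R1 ESC. Its difference was 2.22 in wild-type XEN and 0.55 in Sox17-XEN. Gys1, glycogen synthase, ranged from 13.2 to 28.4 FPKM.

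Of the 5 hypoxia genes measurable in wild-type XEN and R1 ESC, 3 were higher in wild-type XEN and none was lower, against 16.6% and 21.5% of all genes. At day 6, 2 of 5 were higher and 1 was lower than without doxycycline, against 13.7% and 16.0% of all genes. In Sox17-XEN, 1 of 5 was higher and none was lower, against 14.0% and 18.5%. Egln3, which hydroxylates HIF alpha subunits and is itself a HIF target, lies on mm9 chromosome 12 from 55279968 to 55304847. It had 12.9 FPKM without doxycycline, then 10.1, 6.38, 5.47 and 7.22 after 7, 21, 35 and 49 h, and 12.5 at day 6, then 56.4 in Sox17-XEN, and it had 139 FPKM in wild-type XEN against 13.6 FPKM in R1 ESC. Both XEN-type lines were above every other library, and day 6 was not. Ero1l, an oxidase of protein folding in the endoplasmic reticulum, had 19.0 FPKM without doxycycline, then 20.2, 15.3, 17.3 and 25.01 after 7, 21, 35 and 49 h, and 68.9 at day 6, with 49.0 in Sox17-XEN, and it had 163 FPKM in wild-type XEN against 20.5 FPKM in R1 ESC. Its differences were 1.57 at day 6, 2.48 in wild-type XEN and 0.9985 in Sox17-XEN, the last just short of 1 and 1.32 as deposited. Bnip3, a mitophagy receptor, had 182 FPKM at day 6 and 114 FPKM in Sox17-XEN, against 47.4 FPKM without doxycycline, and 233 FPKM in wild-type XEN, against 65.2 FPKM in R1 ESC. Its differences were 1.68 at day 6, 0.92 in Sox17-XEN and 1.37 in wild-type XEN, and that of Sox17-XEN was 1.24 as deposited. Hif1a, the oxygen-labile subunit of HIF-1, had 18.4 FPKM at day 6 and 48.7 FPKM in Sox17-XEN, against 34.4 FPKM without doxycycline, and 54.2 FPKM in wild-type XEN, against 19.9 FPKM in R1 ESC. It was lower at day 6, with a difference of -1.10 that was -0.87 as deposited, and its wild-type XEN difference of 0.96 was 1.40 as deposited. Car9, a carbonic anhydrase and classical HIF target, stayed between 0.668 and 3.34 FPKM. Vegfa, the vascular growth factor, had 28.4 FPKM without doxycycline, 30.9 at 7 h and 37.3 at 21 h, and 38.4 FPKM in R1 ESC, with no usable value in the other 5 libraries.

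The Egln shares differed between states. Egln3 held 38.7% of the 3 hydroxylases in Sox17-XEN and 56.3% in wild-type XEN, Egln1 led at day 6 with 44.5%, and Egln2 led in R1 ESC with 48.8% and without doxycycline with 49.8%. Egln1, the main oxygen sensor of the family and outside the set, had 9.42 FPKM without doxycycline, then 9.34, 7.48, 7.86 and 10.6 after 7, 21, 35 and 49 h, and 32.7 at day 6, with 51.7 in Sox17-XEN, and it had 78.0 FPKM in wild-type XEN against 7.58 FPKM in R1 ESC.

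**Figure D5:**
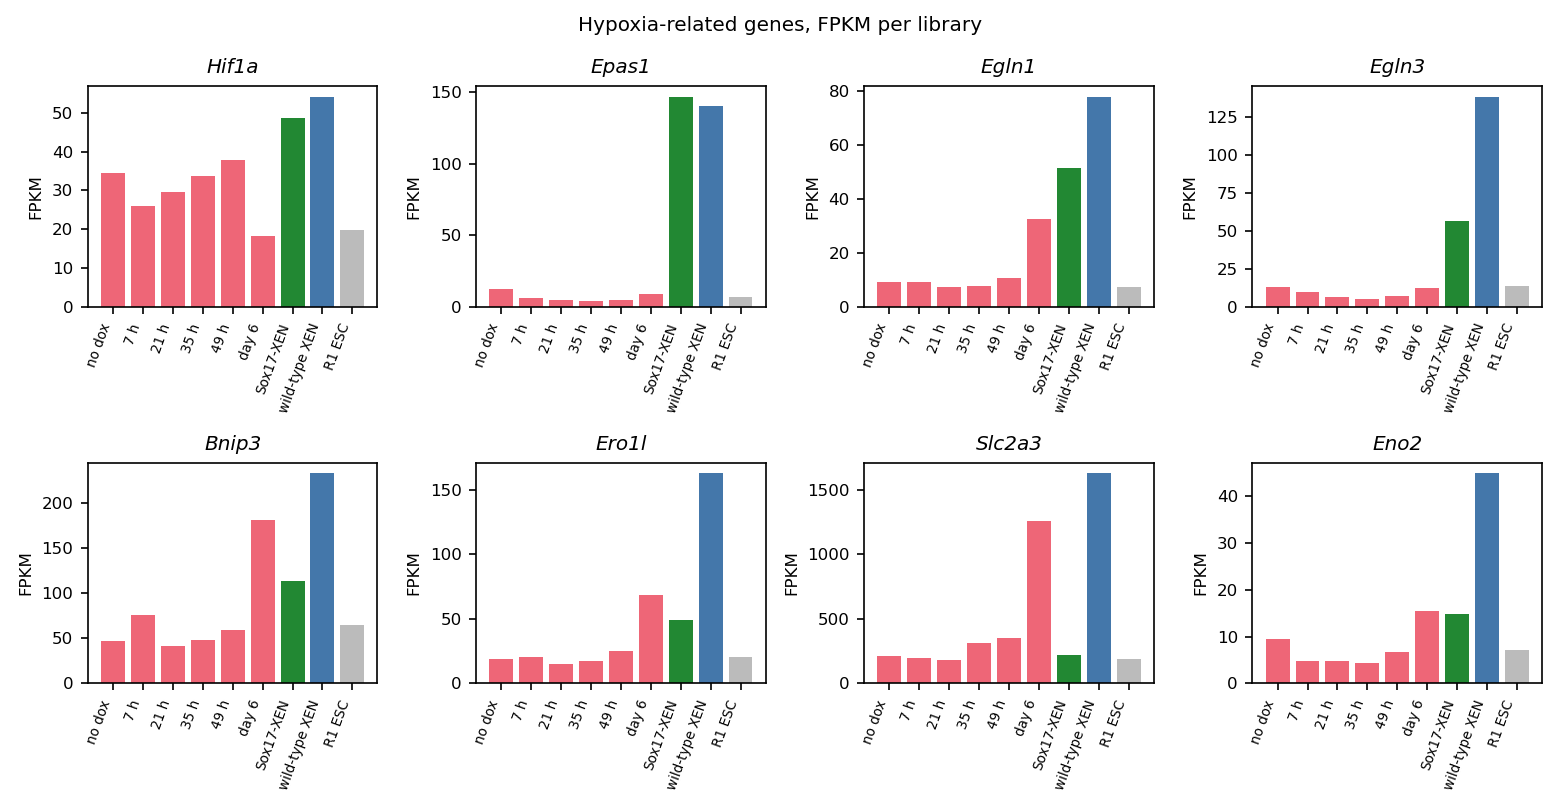
FPKM per library of 8 genes tied to the hypoxia response (the Sox17 line in red and green, wild-type XEN in blue, R1 ESC in grey; 1 library a bar). Epas1 and Egln3 are high in both XEN-type lines and not at day 6, whereas Slc2a3 is high at day 6 and in wild-type XEN and not in Sox17-XEN.

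Sox17-XEN was set against its neighbours in state. Relative to wild-type XEN, 3 of 42 members were higher (Pfkp, Pgam2 and Pck2) and 12 were lower, against 8.97% and 5.46% of all genes, and the members' median was -0.32, against 0.06 over all genes. The lower members included Aldoc (-2.58), Pfkfb3 (-2.38), Gbe1 (-1.76), Pgam1 (-1.64), Ero1l (-1.63) and Hk2 (-1.56). Relative to day 6, 6 of 42 were higher and 10 lower, against 9.04% and 10.2% of all genes, with a median of -0.53, against -0.0037 over all genes. Pfkp, Pygl and Aldoc lay more than 2 log2 units lower, at -3.61, -3.14 and -2.40, and Egln3, Pck2, Pygb, Hif1a, Hk1 and Ldhb were the higher ones, at 1.98 to 1.10.

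Further genes of the same pathways were taken from a list of 89 symbols, of which 71 reached 1 FPKM in at least 1 library. The others stayed below that level or had no row under the listed symbol. In wild-type XEN relative to R1 ESC, 27 were higher and 10 lower, at day 6 relative to no doxycycline 22 and 6, and in Sox17-XEN relative to no doxycycline 19 and 13, of the 71 each time. The shares of all genes were 16.6% higher and 21.5% lower in wild-type XEN, 13.7% and 16.0% at day 6, and 14.0% and 18.5% in Sox17-XEN. As deposited the further genes gave 31 higher and 8 lower in wild-type XEN, 25 and 5 at day 6, and 24 and 11 in Sox17-XEN. All genes as deposited gave 3848 higher and 2390 lower of 14974 in wild-type XEN. They gave 2639 and 1910 of 14992 at day 6, and 3088 and 2184 of 14984 in Sox17-XEN. Hypoxia genes gave 13 higher and 5 lower of 26 in wild-type XEN (background 16.6% and 21.5%), 8 and 4 at day 6 (13.7% and 16.0%), and 10 and 6 in Sox17-XEN (14.0% and 18.5%). Epas1, which encodes HIF-2 alpha, had 9.28 FPKM at day 6 and 147 FPKM in Sox17-XEN, against 12.3 FPKM without doxycycline, and 140 FPKM in wild-type XEN, against 6.71 FPKM in R1 ESC. The collagen-modifying hydroxylases P4ha1, P4ha2 and Plod2 differed by 4.48, 5.41 and 4.76 in wild-type XEN, by 3.44, 3.50 and 3.65 at day 6, and by 3.62, 4.54 and 4.84 in Sox17-XEN; these enzymes also serve the basement membrane collagen that XEN cells make. Ndrg1, Loxl2 and Car12 differed by 3.86, 3.24 and 3.46 in wild-type XEN, by 1.87, 1.45 and 3.71 at day 6, and by 1.48, 2.07 and 3.19 in Sox17-XEN. The hypoxia-listed gene Stc1, a secreted glycoprotein, went the other way, by -1.31 in wild-type XEN, by -2.21 at day 6 and by -1.76 in Sox17-XEN, and Hif3a differed by -2.09 in Sox17-XEN.

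Of 5 listed glucose and lactate carriers, 4 reached 1 FPKM in at least 1 library, and Slc2a2 stayed between 0 and 0.231 FPKM. Among the 4, 3 were higher in wild-type XEN, 3 at day 6 and 1 in Sox17-XEN, against 16.6%, 13.7% and 14.0% of all genes. In Sox17-XEN, Slc2a1, the basal glucose transporter GLUT1, had a difference of -1.17, which did not pass 1 log2 unit as deposited. Slc2a3, the high-affinity glucose transporter GLUT3, had 1256 FPKM at day 6 and 217 FPKM in Sox17-XEN, against 212 FPKM without doxycycline, and 1628 FPKM in wild-type XEN, against 192 FPKM in R1 ESC. Slc16a1, the monocarboxylate transporter MCT1, had 155 FPKM at day 6 and 134 FPKM in Sox17-XEN, against 24.0 FPKM without doxycycline, and 203 FPKM in wild-type XEN, against 26.0 FPKM in R1 ESC. Pkm2, the pyruvate kinase row, had 1120 FPKM at day 6 and 828 FPKM in Sox17-XEN, against 1865 FPKM without doxycycline, and 1482 FPKM in wild-type XEN, against 1866 FPKM in R1 ESC.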

How the data were processed

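Total RNA was extracted with Trizol and made into libraries with the TruSeq RNA kit, per the labels' protocols. Alignment and quantification tools given in the submitters' processing notes are TopHat2 2.0.11, Cufflinks 2.1.2 and Cuffdiff (no version), on mm9. The authors deposited FPKM per gene with confidence bounds and a status for each value, and values with another status than OK were left out. FPKM was rescaled per library (factors 0.871 to 1.26, from 6670 rows with at least 5 FPKM everywhere) and used as log2(rescaled FPKM + 1), which understates changes of low genes. Rows with a maximum under 1 FPKM were left out, which kept 15082. Single libraries were compared without a test, and calls ask for 1 log2 unit. The 2 XEN-type and 2 ESC-type lines were compared with limma 3.58.1 in R 4.3.3 (mean trend, Benjamini-Hochberg, adjusted p under 0.05), which measures the spread between lines and not of replicates. Tested on simulated data of 14925 genes (noise SD 0.306), this recovered 24.5% of genes changed by 1 log2 unit, with 4 false calls, and 100% of those changed by 3, with 8. The simulation gave every gene the same noise and took the lines as independent. In the data the standard errors of the members ran from 0.086 (Fbp1) to 0.95 (Aldoc), and 2 of the lines are related. The recovery rates therefore do not carry over to the real comparison. Genes were given in full per library if they passed 2 log2 units in a state comparison or belonged to 1 of 7 isoenzyme families whose leader changed or whose shares moved by 20 percentage points; Pgam2, Pdk2 and Egln1 were given in full after their values were seen. The members and lists were chosen with earlier results of these data known. Alternatives were the deposited scale, a pseudocount of 0.1, no filter, a threshold of 2 log2 units, no trend and each line left out. Python 3.11.15, pandas 2.3.3 and matplotlib 3.10.9 were used. Coordinates are 1-based. A gene of the further pathway list is not reported here.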

Additional observations from a re-analysis of the deposited data

Results flagged for a closer look

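Aldoc, the brain-type aldolase, was chosen because its differences from the uninduced Sox17 line pointed opposite ways in 2 later libraries of that line: 1.08 at day 6 and -1.32 in Sox17-XEN. Egln3, the HIF prolyl hydroxylase, did likewise, with 1.72 in Sox17-XEN and -1.08 at 35 h. Each value rests on 1 library, both values of a gene share the uninduced library, and the difference between them was not tested.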

How the results depend on the processing

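No paired analysis was possible because each group has 1 library, so no groups share 2 replicate numbers. At a threshold of 2 log2 units the members called were 8 in wild-type XEN against R1 ESC, 3 at day 6 and 3 in Sox17-XEN against no doxycycline, 1 each at 7 h, 21 h, 35 h and 49 h, 3 in Sox17-XEN against day 6 and 2 in Sox17-XEN against wild-type XEN. With a pseudocount of 0.1, 2 members were called at 7 h. For these comparisons of single libraries, the shares of all genes past 2 log2 units or with that pseudocount were not taken. The member counts at these settings therefore have no background beside them. In the limma comparison of lines, 5 members were called with no filter on low values and 3 with no mean trend, and leaving out 1 line at a time gave 0 to 6 members and 0 to 2085 of all genes, against 2832 with all 4 lines. Of 45 member calls in the 3 state comparisons, 34 were kept on the deposited scale, 11 were lost and 9 others were gained, and no call reversed. With a pseudocount of 0.1, 10 calls were gained. The cause was not tested. Depth limits low genes such as Fbp1, Fbp2 and Car9.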

Other observations

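Among the further glycogen genes, 6 were higher and 1 lower of 15 in wild-type XEN relative to R1 ESC, 6 and 1 at day 6, and 4 and 2 in Sox17-XEN relative to no doxycycline. The shares of all genes in these comparisons were 16.6% and 21.5%, 13.7% and 16.0%, and 14.0% and 18.5%. Gaa, the lysosomal enzyme that degrades glycogen, had 215 FPKM at day 6 and 167 FPKM in Sox17-XEN, against 35.2 FPKM without doxycycline, and 165 FPKM in wild-type XEN, against 20.8 FPKM in R1 ESC. The row labelled Pgm1 had 85.2 FPKM at day 6 and 16.2 FPKM in Sox17-XEN, against 12.8 FPKM without doxycycline, and 31.8 FPKM in wild-type XEN, against 12.1 FPKM in R1 ESC. That labelled Pgm2, also of the phosphoglucomutase family, was not high at day 6 alone. Pgm2 had 79.4 FPKM at day 6 and 41.3 FPKM in Sox17-XEN, against 20.4 FPKM without doxycycline, and 84.5 FPKM in wild-type XEN, against 24.0 FPKM in R1 ESC. G6pc3, the ubiquitous glucose 6-phosphatase, had 57.3 FPKM at day 6 and 30.7 FPKM in Sox17-XEN, against 8.44 FPKM without doxycycline, and 43.7 FPKM in wild-type XEN, against 8.50 FPKM in R1 ESC. Shpk, sedoheptulokinase, had 2.81 FPKM at day 6 and 5.29 FPKM in Sox17-XEN, against 0.655 FPKM without doxycycline, and 10.3 FPKM in wild-type XEN, against 0.573 FPKM in R1 ESC. The row 9630033F20Rik had 3.37 FPKM in Sox17-XEN, against 14.1 FPKM without doxycycline.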
